A study of Mus musculus with 6 samples.

Results

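Beta-tubulin is the subunit that pairs with alpha-tubulin to build microtubules, and the mouse carries several genes for it, each encoding a slightly different isotype. The 8 genes described here, Tubb1, Tubb2a, Tubb2b, Tubb3, Tubb4a, Tubb4b, Tubb5 and Tubb6, were taken by symbol from a table of 43346 genes, and all 8 were found. The set was chosen by family, and the family itself was selected on the log2 fold change of Tubb1 between radiated and non-radiated femur. The values of the members in this comparison are therefore given as a description, and a member past a threshold is not read as support. The counts come from 6 RNA-seq libraries of C57BL/6 mice aged 4 months. In the radiated group, 24 Gy of X-rays was given once, at 6.6 Gy per minute, to 5 mm of the distal metaphysis of the right femur, the flared part of the bone above the knee. In the non-radiated group the same piece was taken from the left femur, so that both groups come from mice that received focal radiation, and neither holds bone of an animal that was never radiated. Both were taken on day 21, ahead of bone loss seen at day 28, after the muscle had been removed. Each group has 3 libraries, numbered 1 to 3.

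The isotypes differ mainly in where they are made. Tubb1 is the beta-tubulin of megakaryocytes, the marrow cells that shed platelets, and it forms most of the ring of microtubules that keeps a resting platelet flat. Loss of Tubb1 is known to give fewer and rounder platelets. Tubb5 and Tubb4b are made in most cells, Tubb2a, Tubb2b, Tubb3 and Tubb4a are best known from the nervous system, and Tubb6 is found at a low level in many tissues.

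Total gene counts ran from 34034251 to 48708383 per library. In non-radiated library 2 a single row, AY036118, held 32.9% of the counts, against 0.321% to 5.61% in the other libraries, and the scaling used here, the trimmed mean of M-values (TMM), gave that library a factor of 0.722 against 1.03 to 1.10 in the other libraries. Bone markers were high in every library but lower after radiation, with the summed level of Col1a1, Col1a2, Bglap, Ibsp, Dmp1, Sost and Phex at 11254, 8102 and 12357 CPM (TMM-scaled counts divided by library size, edgeR's cpm) in the non-radiated and 7733, 5974 and 6973 CPM in the radiated libraries. Skeletal muscle genes were also present, and their summed level differed most among the radiated libraries, at 1920, 5969 and 607 CPM in libraries 1, 2 and 3, against 563, 847 and 452 CPM in the non-radiated libraries. The labels do not say that the libraries of a group came from separate mice, so the spread between them may in part be technical.

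The isotypes are most unlike at the end of the coding sequence, which encodes the tail of the protein on the microtubule surface. The last 75 coding bases are shown for the most abundant isotype, Tubb5, and for the 4 members on which the results or their certainty turn, 5′ to 3′ with the stop codon included, from GENCODE M21 transcripts (build GRCm38). Capitals mark bases that differ from Tubb5 in an alignment of the whole coding sequences.
Tubb5: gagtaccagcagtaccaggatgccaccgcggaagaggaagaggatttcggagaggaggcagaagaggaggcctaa
Tubb1: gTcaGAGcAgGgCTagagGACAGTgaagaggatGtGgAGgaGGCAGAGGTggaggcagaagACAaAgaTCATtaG
Tubb4b: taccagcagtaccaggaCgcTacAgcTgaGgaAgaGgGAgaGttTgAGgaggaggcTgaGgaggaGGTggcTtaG
Tubb2a: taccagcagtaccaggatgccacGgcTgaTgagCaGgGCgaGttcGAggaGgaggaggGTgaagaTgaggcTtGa
Tubb2b: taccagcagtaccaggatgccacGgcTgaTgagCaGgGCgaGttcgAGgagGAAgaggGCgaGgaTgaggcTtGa
In this stretch Tubb1 differed from Tubb5 at 36 of 75 bases, Tubb4b at 20, Tubb2b at 19 and Tubb2a at 16, with bases opposite a gap counted. These ends lie at chr17:35834982-35835056 on the minus strand for Tubb5, chr2:174457808-174457882 on the plus strand for Tubb1, chr2:25222308-25222382 on the minus strand for Tubb4b, chr13:34074468-34074542 on the minus strand for Tubb2a and chr13:34127471-34127545 on the minus strand for Tubb2b, each within the last coding exon.

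Over the whole coding sequence Tubb1 is the outlier of the family. It shared 73.0% to 76.1% of aligned bases with the other members, while every pair among the other 7 shared 80.2% or more. Tubb2a and Tubb2b, neighbours on chromosome 13, shared 96.5%, with 47 unlike bases of 1338, 3 of them among the last 75. How well reads can be assigned follows from this likeness. Of all windows of 50 bases in the longest coding transcript, none in Tubb1, Tubb3 or Tubb6 occurred in a transcript of another gene, against 49.6% in Tubb2a, 39.3% in Tubb2b and 55.5% in Tubb4b. With windows of 100 bases the shares were 36.9% for Tubb2a, 27.7% for Tubb2b and 30.6% for Tubb4b. The windows of Tubb4b were shared most often with its copy Tubb4b-ps1. Next came its copy Tubb4b-ps2 with windows of 50 bases and the gene Fam166a with windows of 100 bases. The rows of Tubb4b-ps1 and Tubb4b-ps2 held 67 to 125 and 2 to 15 counts per library. How the counting treated reads that fit more than 1 place is not given in the sources used here, so the values of Tubb2a, Tubb2b and Tubb4b are uncertain to that extent.

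The members were ranked by CPM per kilobase of the gene length in the table, the scale on which levels of different genes are compared here. In the non-radiated libraries Tubb5 was highest at 242 ± 13.2 CPM per kilobase (mean ± SD, n = 3, as for all levels that follow), then Tubb4b at 156 ± 14.8, Tubb1 at 73.7 ± 2.11, Tubb2a at 22.0 ± 0.596, Tubb6 at 5.22 ± 1.16, Tubb2b at 1.16 ± 0.106, Tubb3 at 0.269 ± 0.0503 and Tubb4a at 0.0302 ± 0.0158. Neighbours in this order did not overlap in the non-radiated libraries or in the radiated libraries. The order was the same after radiation, but the distances around Tubb1 were not. Tubb4b stood 2.12-fold above Tubb1 in the non-radiated and 5.39-fold above it in the radiated libraries, and Tubb1 stood 3.34-fold above Tubb2a in the former and 1.36-fold above it in the latter. The row of Tubb1 holds only 50 bases beyond its 1356 coding bases, against 1992 for Tubb5 and 750 for Tubb4b, and it ends at the stop codon, so reads beyond the stop codon are not among its counts.

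**Figure D1:**
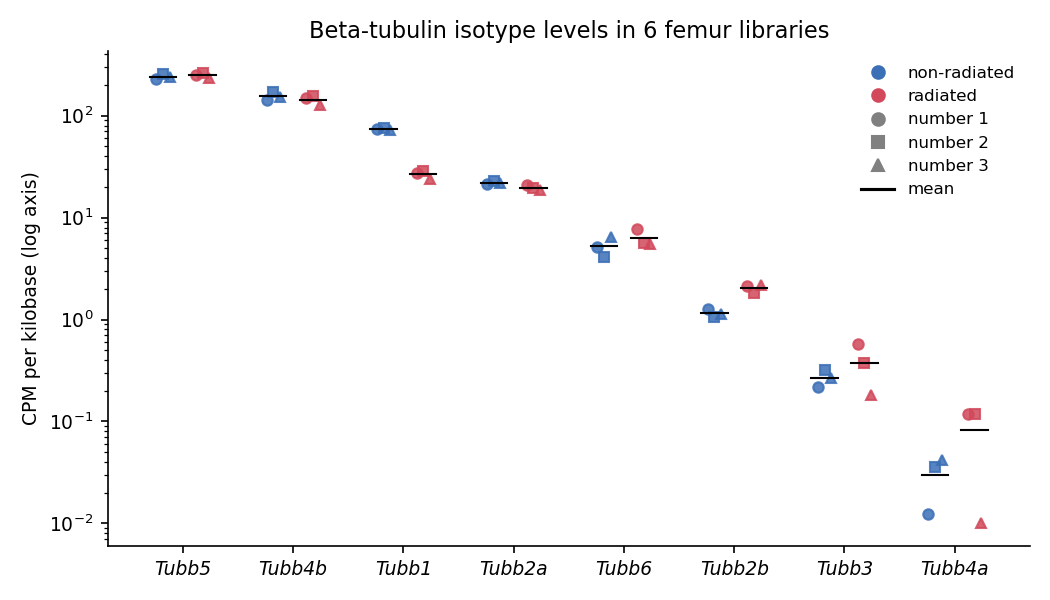
Level of each beta-tubulin isotype in CPM per kilobase on a log axis, ordered by the non-radiated mean. Points are libraries (blue non-radiated, red radiated, shape for the library number) and bars are group means. The Tubb1 means are 73.7 and 26.6 CPM per kilobase and its groups do not overlap, while those of Tubb5 and Tubb4b do.

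Tubb1, the platelet isotype (ENSMUSG00000016255, chromosome 2, 174450695 to 174457882, plus strand), was lower in every radiated library than in any non-radiated library. It had 3762, 2674 and 4275 counts in non-radiated libraries 1, 2 and 3 and 1450, 2138 and 1513 counts in radiated libraries 1, 2 and 3. After scaling these were 103, 107 and 101 CPM in the non-radiated libraries and 38.3, 40.0 and 33.9 CPM in the radiated libraries. Within each group the libraries lay close together, and the groups were far apart. The mean was 104 ± 2.97 CPM in non-radiated and 37.4 ± 3.16 CPM in radiated femur, a 2.77-fold lower level (log2 fold change -1.47, SE 0.07, edgeR quasi-likelihood fit). Of 10034 tested genes whose mean reached 10 CPM, 17 had a log2 fold change at or below this value, Tubb1 included. The family was selected on this value, so the rank is only a description. In a piece of bone, fewer megakaryocytes and less Tubb1 RNA per megakaryocyte cannot be told apart.

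Tubb2b (ENSMUSG00000045136, chromosome 13, 34127008 to 34130354, minus strand), an isotype of developing neurons that other cells make at a low level, went the other way. It had 89, 51 and 93 counts in the non-radiated and 156, 185 and 186 counts in the radiated libraries, which is 2.44, 2.04 and 2.19 CPM against 4.12, 3.46 and 4.17 CPM. Every radiated library was above every non-radiated library. The log2 fold change was 0.81 (SE 0.15), a 1.75-fold higher level. Its near-copy Tubb2a (ENSMUSG00000058672, chromosome 13, 34074301 to 34078008, minus strand) stood at 34.0, 35.9 and 34.8 CPM in the non-radiated and 32.9, 30.9 and 29.4 CPM in the radiated libraries. These groups did not overlap either, but the log2 fold change was -0.17 (SE 0.07). The 2 genes thus differed in direction under TMM, and under library totals alone Tubb2a was at 0.03. In radiated femur Tubb2a remained the higher of the pair, at 19.6 ± 1.09 CPM per kilobase against 2.04 ± 0.205 for Tubb2b.

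Tubb5 and Tubb4b, the isotypes of most cells, overlapped between the groups. Tubb5 (ENSMUSG00000001525, chromosome 17, 35833921 to 35838306, minus strand) was at 762, 850 and 803 CPM in the non-radiated and 833, 868 and 776 CPM in the radiated libraries. Its log2 fold change was 0.04 (SE 0.07), less than the spread between libraries. Tubb4b (ENSMUSG00000036752, chromosome 2, 25222160 to 25224702, minus strand) was at 300.5, 360 and 317 CPM in the non-radiated and 308, 322 and 268 CPM in the radiated libraries, with a log2 fold change of -0.12 (SE 0.09). In both groups library 2 was the highest for both genes. Tubb4b overlaps Fam166a, whose row held 1 to 8 counts per library.

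The other 3 members were at low levels. Tubb3 and Tubb4a varied mainly among the radiated libraries, and Tubb6 varied in both groups (SD 2.05 CPM non-radiated and 2.24 CPM radiated). Tubb6 (ENSMUSG00000001473, chromosome 18, 67390717 to 67402748, plus strand) was at 8.97, 7.23 and 11.3 CPM in the non-radiated and 13.6, 9.81 and 9.66 CPM in the radiated libraries, with a log2 fold change of 0.26 (SE 0.18). Radiated library 1 alone lay above all non-radiated libraries. Tubb3 (ENSMUSG00000062380, chromosome 8, 123411424 to 123422015, plus strand), the isotype used as a marker of neurons, had 15, 15 and 21 counts in the non-radiated and 41, 37 and 15 counts in the radiated libraries. Its log2 fold change was 0.49 (SE 0.41), and this became 0.07 when radiated library 1 was left out and 0.82 when radiated library 3 was. Tubb3 lies within the long row Gm20388, which held 1566 to 2761 counts per library, and whether the counting used strand is not given in the sources used here. Tubb4a (ENSMUSG00000062591, chromosome 17, 57080066 to 57087782, minus strand), known from myelinating cells and neurons, had 1, 2 and 4 counts in the non-radiated and 10, 14 and 1 counts in the radiated libraries. It was below the filter on low counts and entered the fit in only 5 alternatives, with log2 fold changes from 1.02 to 1.92 and none past the threshold. So few counts cannot show a difference.

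For Tubb3 and Tubb4a, radiated libraries 1 and 2 were high and radiated library 3 was not. The 14 skeletal muscle genes were also high in radiated libraries 1 and 2, with summed levels of 1920 and 5969 CPM, against 607 CPM in radiated library 3. The order within the first 2 differed from that of Tubb3. In radiated library 3 the muscle sum lay within the non-radiated libraries, 452 to 847 CPM, while Tubb3 and Tubb4a lay below theirs. All 14 muscle genes had positive log2 fold changes (median 2.25). By edgeR's quasi-likelihood test none was called, 14 had an unadjusted p under 0.05, and DESeq2 and limma-voom also called none, while 12 were called with the library number as a block, 14 under library totals alone, 14 with no filter on low counts, 10 without radiated library 3 and 2 without radiated library 1. Over all genes, 21.5% had an unadjusted p under 0.05, and the shares called were 7.8% by edgeR, 10.3% by DESeq2, 7.29% by limma-voom, 8.9% with the block, 5.33% under library totals alone, 7.2% with no filter, 7.11% without radiated library 3 and 3.99% without radiated library 1. Of 12 nerve markers, 5 passed the filter, and their summed level over all 12 was 135 to 139 CPM in the non-radiated and 110 to 125 CPM in the radiated libraries, most of it from Mbp, which blood cells also express. The median log2 fold change of the nerve markers was -0.17 among the 5 tested, and 0.53 with no filter on low counts, so the direction depended on the filter. Among the 12, Nefl and Nefm, neurofilament genes, held 0 reads in the 3 radiated libraries, and Nefm held none in the others. Nefh, also a neurofilament gene, passed the filter and ran from -0.43 to -0.07 over 14 alternatives, with 0 calls. Uchl1, a ubiquitin hydrolase abundant in neurons, rose (log2 fold change 0.75, SE 0.14, edgeR adjusted p 0.0106), and Mbp fell by 0.25 (SE 0.06, edgeR adjusted p 0.0363), a call lost with the block at an adjusted p of 0.0504 and in 5 of 6 fits that each left out a library, all but the one without radiated library 2. The part of muscle or nerve in the levels of Tubb3, Tubb4a and Tubb6 was not tested.

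**Figure D2:**
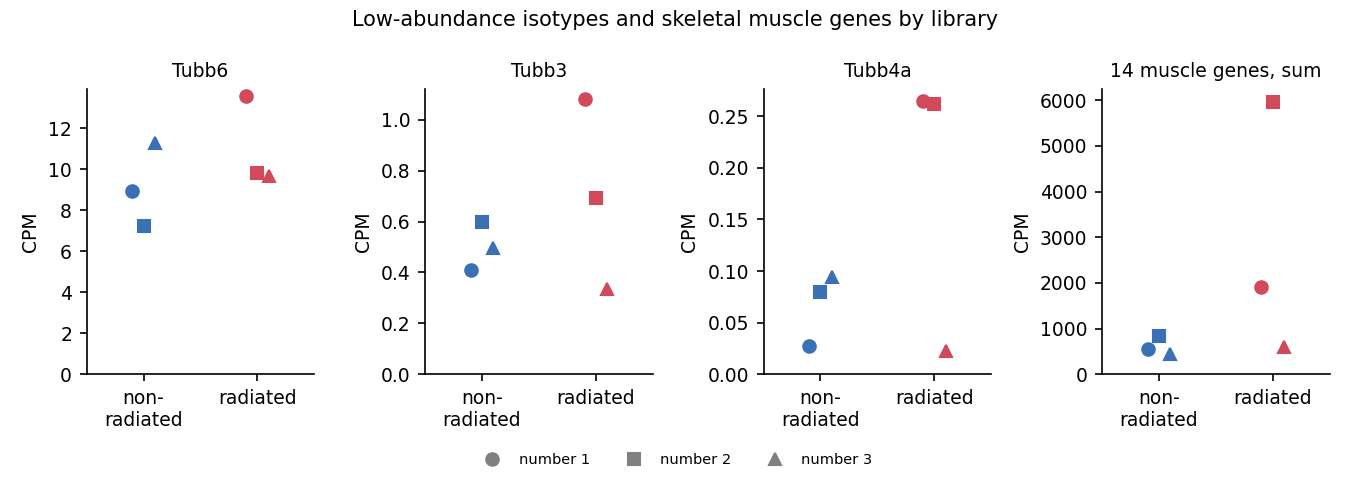
CPM of Tubb6, Tubb3 and Tubb4a and the summed CPM of 14 skeletal muscle genes in each library (blue non-radiated, red radiated, shape for the library number; axes start at 0). For Tubb3 and Tubb4a, radiated library 3 lies below every non-radiated library and radiated libraries 1 and 2 lie above them.

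Of the 7 members that passed the filter, 2 were past the threshold of the fit over all genes (Benjamini-Hochberg adjusted p under 0.05), Tubb1 lower and Tubb2b higher, where 7.8% of the 18757 genes tested were past it, 3.24% lower and 4.56% higher. For 3 of the 7 the libraries of the 2 groups were fully apart, against 25.9% of all genes tested. The family was chosen with this comparison known, and nothing is read from these counts. Over the 14 alternative settings the log2 fold change of Tubb1 ran from -1.52 to -1.27. These settings refit the libraries on which the family was selected, so passing the threshold in them is no support for a member. Tubb2b was past it in 12 of 14, with a log2 fold change from 0.74 to 0.99, and was not past it without non-radiated library 2 or without radiated library 1.

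The make-up of the family was close to constant within each group. Tubb1 held 15.5%, 14.3% and 14.5% of the summed CPM per kilobase of the 8 members in the non-radiated libraries and 5.97%, 6.04% and 5.85% in the radiated libraries. The share of Tubb5 was 48.4% ± 0.395 in the non-radiated and 55.6% ± 0.881 in the radiated libraries, that of Tubb4b 31.1% ± 1.12 and 32.1% ± 0.825, and that of Tubb2a 4.41% ± 0.137 and 4.40% ± 0.223. Shares add up to a fixed total, so a lower share of 1 member raises those of the other members. On the scale of levels, the sum of all 8 was 500 ± 29.3 CPM per kilobase in non-radiated and 447 ± 30.7 in radiated femur. Without Tubb1 the sum was 427 ± 27.8 and 420 ± 28.5, with overlapping libraries. With the length of the longest coding transcript in place of that in the table, a choice made after seeing the data, the share of Tubb1 was 12.1% and 4.80%, and with counts not divided by length it was 8.10% and 3.09%.

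**Figure D3:**
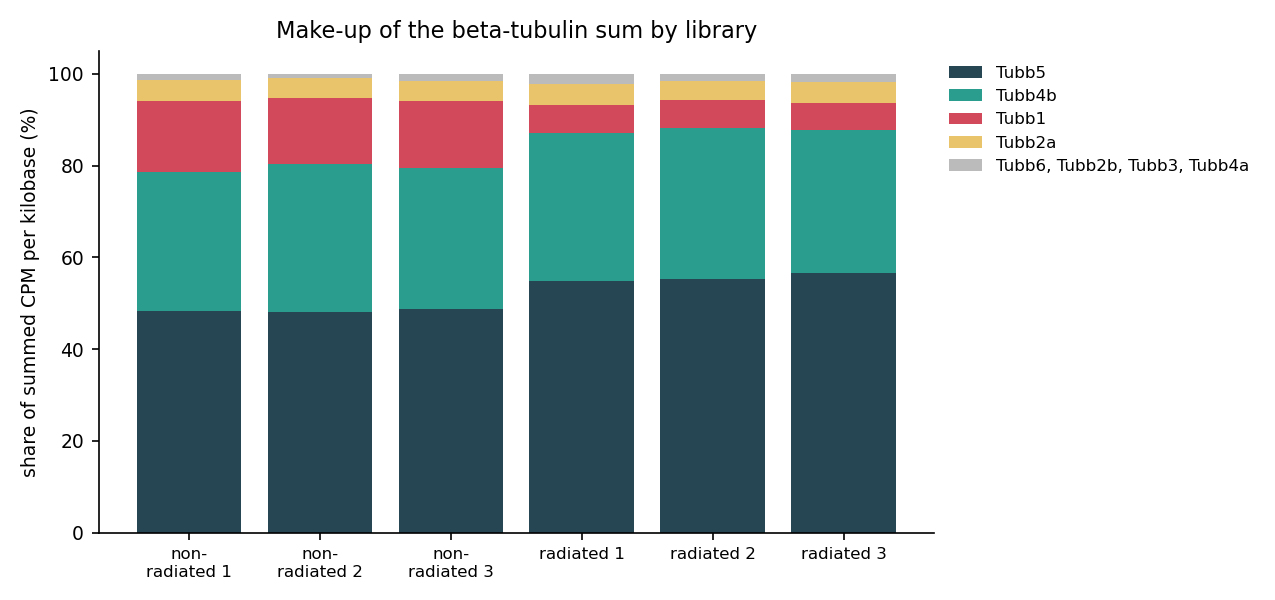
Share of each beta-tubulin isotype in the summed CPM per kilobase of the 8 members, in percent, 1 bar per library. The band of Tubb1 is 14.3% to 15.5% in the non-radiated and 5.85% to 6.04% in the radiated libraries.

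Tubb1 was set beside 20 genes of megakaryocytes and platelets, a list of receptors, granule proteins and adhesion proteins that was drawn up with the fall of such genes already known and is therefore no independent evidence of its direction. All 20 had negative log2 fold changes, with a median of -1.40, and 18 fell by edgeR's quasi-likelihood test, against 3.24% of all genes tested. Gp6, the collagen receptor of platelets, had a change of -1.63 (log2; SE 0.15, edgeR adjusted p 0.000274). Gp1ba, the receptor for von Willebrand factor, was at -1.58 (SE 0.11, edgeR adjusted p 4.95e-05) and Ppbp, a chemokine of platelet granules, also at -1.58 (SE 0.09, edgeR adjusted p 1.53e-05). At the other end were Rasgrp2, an activator of platelet integrins that other blood cells also make, at -0.28, and Nbeal2, a gene of granule formation, at -0.31. Of the 20 genes 7 had a lower log2 fold change than Tubb1 and 13 a higher one. By library, Tubb1 lay -1.44, -1.37 and -1.61 from its non-radiated mean on the log2 scale in radiated libraries 1, 2 and 3, beside list medians of -1.40, -1.29 and -1.42. In both series library 2 was the highest and library 3 the lowest. The 7 bone markers moved in the same direction as Tubb1. All 7 had negative log2 fold changes (median -0.61), and 2 fell by edgeR's quasi-likelihood test, against 3.24% of all genes tested. Phex, a peptidase of osteocytes, was at -1.04 (SE 0.18, edgeR adjusted p 0.00909) and was called in all 14 alternatives. Col1a1, the main chain of bone collagen, was at -0.61 (SE 0.16, edgeR adjusted p 0.0470) and was called in 7 of 14, and in 1 of 6 fits that each left out a library, the one without non-radiated library 2. The part of bone cells in the level of Tubb1 was not tested.

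**Figure D4:**
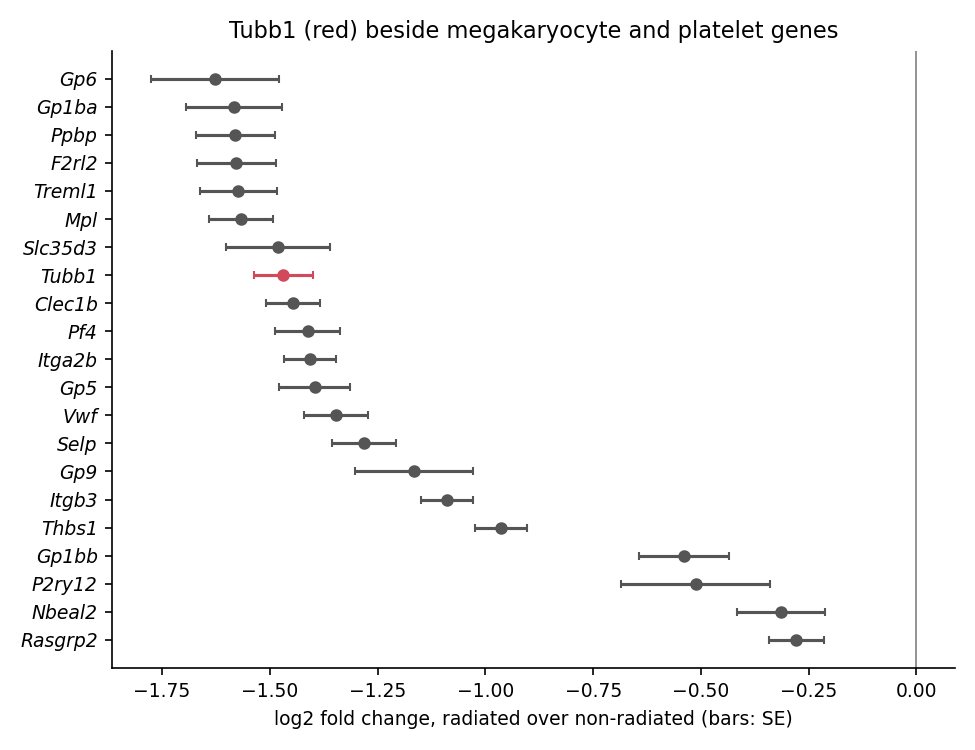
Log2 fold change, radiated over non-radiated, of Tubb1 (red) and 20 megakaryocyte and platelet genes, ordered by value; bars are standard errors of the edgeR fit. Tubb1 at -1.47 lies among them, with 7 genes lower and 13 higher.

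The 6 genes whose levels followed Tubb1 most closely over the 6 libraries, by the root mean square difference of centred log2 CPM among 10033 other genes whose mean reached 10 CPM, were Trpc6, Pf4, F2rl2, Cd226, Mrvi1 and G6b. Trpc6, a cation channel, was nearest, at a difference of 0.0263 on the log2 scale, with 25.9 ± 1.10 CPM in non-radiated and 8.92 ± 0.602 CPM in radiated femur (n = 3 each). Pf4, the platelet factor of alpha granules, was next at 0.0413, with 125 ± 7.29 and 46.8 ± 4.21 CPM. F2rl2, a thrombin receptor, stood at 0.0552, the adhesion receptor Cd226 at 0.0646, Mrvi1 at 0.0654 and the platelet inhibitory receptor G6b at 0.0660. Pearson's r with Tubb1 was at least 0.996 for each, over 6 libraries that fall into 2 separate groups, and is given as a description. Pf4 and F2rl2 are also in the megakaryocyte list.

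The transcription factors that act in late megakaryocytes moved less than Tubb1. Of 10 listed, 9 had negative log2 fold changes, with a median of -0.19, which was 0.01 under library totals alone. By edgeR's quasi-likelihood test none was called, and 5 of 10 had an unadjusted p under 0.05, against 21.5% of all genes. DESeq2 called 5, against 10.3% of all genes, and limma-voom none. Gata1, which red cell precursors also need, stood at -0.29 (SE 0.09, edgeR adjusted p 0.0902). Nfe2, a subunit of the factor that drives platelet release and binds the Tubb1 gene, was at -0.25 (SE 0.07, edgeR adjusted p 0.0549). With the library number as a block both were called, at an adjusted p of 0.0289 for Gata1 and 0.0397 for Nfe2. Both genes are shared with other blood lineages of the marrow, and their levels in megakaryocytes alone were not measured.

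The promoter of Tubb1 is shown beside that of Tubb5, since the former fell most and the latter, the most abundant member, did not leave its spread. Each window runs from 250 bases before to 50 after the start of the RefSeq gene (GRCm38.p6), 5′ to 3′ on the gene's own strand: Tubb1 at chr2:174450345-174450644 on the plus strand and Tubb5 at chr17:35838252-35838551 on the minus strand. Capitals mark AGGAAG (a core that ETS factors bind) in Tubb1 and CCAAT, on either strand, in both.
Tubb1: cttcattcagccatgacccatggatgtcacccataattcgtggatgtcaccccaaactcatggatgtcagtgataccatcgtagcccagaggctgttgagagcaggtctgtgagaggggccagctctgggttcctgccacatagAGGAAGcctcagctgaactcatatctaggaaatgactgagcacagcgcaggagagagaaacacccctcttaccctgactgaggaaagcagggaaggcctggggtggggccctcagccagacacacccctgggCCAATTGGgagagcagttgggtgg
Tubb5: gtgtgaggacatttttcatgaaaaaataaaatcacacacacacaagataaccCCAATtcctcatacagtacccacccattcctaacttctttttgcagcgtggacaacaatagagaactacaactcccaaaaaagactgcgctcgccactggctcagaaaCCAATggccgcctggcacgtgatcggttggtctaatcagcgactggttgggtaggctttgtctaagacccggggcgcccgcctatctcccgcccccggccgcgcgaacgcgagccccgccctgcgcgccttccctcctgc
The Tubb1 window held 3 CpG dinucleotides and the Tubb5 window 20, and the other 4 members with a window, Tubb2a, Tubb3, Tubb4a and Tubb4b, held 25, 26, 19 and 16, where the median of 32851 windows was 7. The ETS letters, AGGAAG or CGGAAG, were searched on both strands, like all motifs here, and occurred 1 time in the Tubb1 window, in none of the other 5, and in 46.5% of all windows. CCAAT occurred 2 times in Tubb1, both within 1 run of letters that reads the same on either strand, 2 times in Tubb5, 5 times in Tubb4b, and in 37.4% of all windows. TATAAA occurred in Tubb2a and Tubb4b and in 13.6% of all windows. The GATA factor letters, searched as AGATAA, as AGATAG, and as the same runs with T for the first base, were absent from the Tubb1 window, occurred in Tubb5 and Tubb4b, and were in 29.8% of all windows. TGANTCA (the core of NF-E2 and AP-1 sites) was in no member's window and in 7.81% of all windows. Of 16 megakaryocyte list genes with a window, 11 held the ETS letters, 7 the GATA letters and 4 TGANTCA. A list gene was counted if any of its windows held the letters, so these counts are per gene and the shares above per window. The Tubb1 window ends at base 174450644, ahead of the start of its counted row at 174450695, so the bases around that start were not searched. A match or its absence here describes these letters in these windows only.

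Alpha-tubulins, the partners of beta-tubulin in every microtubule, were led by Tuba1b at 222 CPM per kilobase in non-radiated femur, followed by Tuba4a at 116, Tuba1c at 79.9, Tuba1a at 25.5 and Tuba8 at 7.51. Of the 8 genes 5 passed the filter, and Tuba3a, Tuba3b and Tubal3 held between 0 and 3 counts in each library. By edgeR's quasi-likelihood test 2 of the 5 fell and none rose, where 3.24% of all genes tested fell and 4.56% rose. Their median log2 fold change was -0.11, and 0.09 under library totals alone. Tuba4a, an isotype found in platelets, was at 410, 438 and 439 CPM in the non-radiated and 332, 362 and 305 CPM in the radiated libraries, and fell by 0.37 (log2; SE 0.07, edgeR adjusted p 0.0167). Tuba8, known from heart, muscle and testis, was at 15.1, 19.4 and 15.7 CPM in the non-radiated and 10.8, 12.3 and 8.58 CPM in the radiated libraries, and fell by 0.66 (SE 0.15, edgeR adjusted p 0.0263). The groups did not overlap for Tuba4a, Tuba8 or Tuba1c, 3 of the 5 tested, against 25.9% of all genes tested. The call of Tuba4a was lost without non-radiated library 2 (adjusted p 0.0556) or radiated library 1 (0.0693) and under library totals alone (0.759), and that of Tuba8 in the same 3 settings (0.0814, 0.0823 and 0.417) and without radiated library 3 (0.0511). Tuba4a overlaps Stk16 and Tuba8 overlaps Gm15856. Tuba1a, Tuba1b and Tuba1c had log2 fold changes of 0.14, 0.01 and -0.11 (edgeR adjusted p 0.515, 0.953 and 0.279). The ratio of summed alpha to summed beta levels per kilobase was 0.903 ± 0.0336 in non-radiated and 0.943 ± 0.00312 in radiated femur (n = 3 each). The alpha sum itself was 451 ± 12.6 CPM per kilobase in non-radiated and 421 ± 30.1 in radiated femur. The beta sum without Tubb1 was 427 ± 27.8 and 420 ± 28.5. Against that sum the ratio went the other way, lower in each radiated library than in any non-radiated library, with a small gap between the closest libraries. What moved either ratio was not tested.

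**Figure D5:**
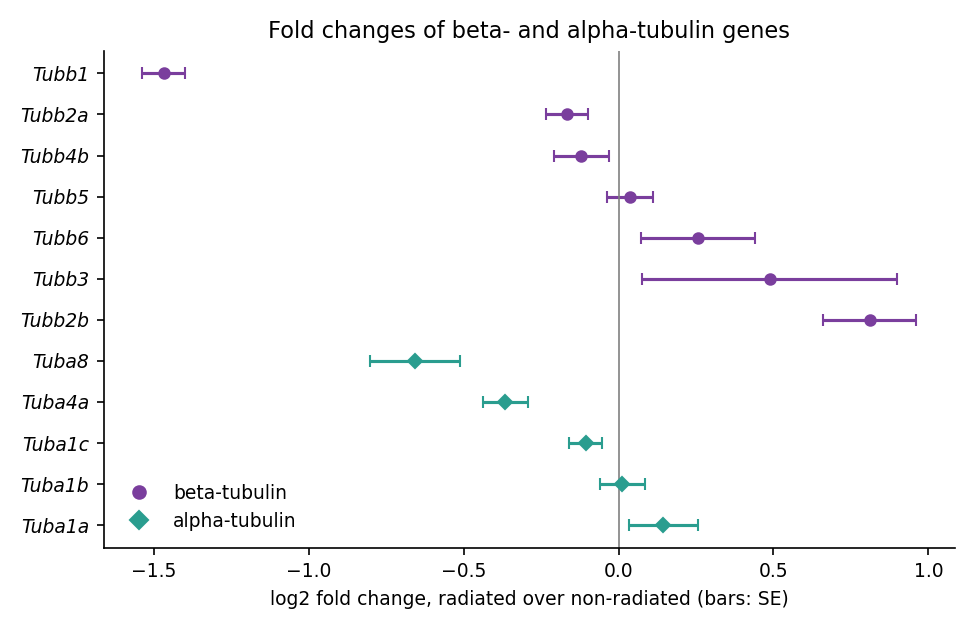
Log2 fold change, radiated over non-radiated, of the 7 beta-tubulin (circles) and 5 alpha-tubulin (diamonds) genes that passed the filter; bars are standard errors of the edgeR fit. Tubb1 at -1.47 and Tubb2b at 0.81 are the lowest and the highest of the genes drawn.

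Genes that fold, modify or bind tubulin were measured in the same fit, where 7.8% of all genes were called and the median log2 fold change was 0.0023. Of 12 genes for gamma, delta and epsilon tubulins and the gamma-tubulin ring, 1 was called. That gene, Mzt1, a small subunit of the ring, fell by 0.22 (SE 0.06, edgeR adjusted p 0.0496), a call lost with the block (0.0901) and kept in 1 of 6 fits that each left out a library. Of 16 genes that fold tubulin, the cofactors Tbca to Tbce, the CCT chaperonin and others, 15 had negative log2 fold changes (median -0.10, and 0.09 under library totals alone). By edgeR's quasi-likelihood test none was called, and 4 of the 16 had an unadjusted p under 0.05, near the 21.5% of all genes. DESeq2 and limma-voom called none. Of 20 tested tubulin-modifying enzymes 1 was called, the glutamylase Ttll11, which fell by 0.53 (SE 0.14, edgeR adjusted p 0.0476). That call was lost with the block (0.0666) and without any 1 of the 6 libraries. Of 26 tested microtubule-associated proteins and stathmins 2 were called. Map1a, a protein that binds along microtubules, rose (log2 fold change 0.78, SE 0.13, edgeR adjusted p 0.00607) and was called in all 14 alternatives. Kif2a, a kinesin that shortens microtubules, fell by 0.33 (SE 0.06, edgeR adjusted p 0.00994), a call lost without radiated library 1 (0.0505) and under library totals alone (0.783). All 16 genes of dividing cells, which build spindles from these tubulins, had negative log2 fold changes (median -0.10, and 0.10 under library totals alone). By edgeR's quasi-likelihood test none was called, and 1 of the 16 had an unadjusted p under 0.05, against 21.5% of all genes. DESeq2 and limma-voom called none.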

How the data were processed

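Reads were aligned to mm10 with STAR 2.5.2b and counted with featureCounts of Subread, per the submitters' processing notes. Libraries came from a stranded mRNA kit, per the labels' protocols. The annotation, filters and use of strand are not given in the sources used here. The deposited table holds raw counts for 43346 genes, and deposited RPKM values, in which the divisor for depth was 5.55 to 6.91 times the gene count total, so RPKM was not used. Gene starts and ends in the table matched GENCODE M21 for 78.8% of the IDs found there.

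The test was that of edgeR 4.0.16 (R 4.3.3). The function filterByExpr (minimum count 10, minimum total 15) left 18757 genes, with TMM, glmQLFit and glmQLFTest, the group as the only term, and Benjamini-Hochberg adjustment over all genes. The SE is the log2 fold change over the square root of F. On counts simulated for 18464 genes, edgeR recovered 76% of the 2-fold and 94.8% of the 4-fold changes. Library pairs within a group differed by more than sampling noise (chi-square per degree of freedom 17.8 to 631). This was computed on raw counts without TMM and with AY036118 kept. Pairs with non-radiated library 2, where that row was large, gave 533 and 631, and the other pairs 17.8 to 131.

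Members and lists were chosen with earlier results of these data known. Named were all members and alpha-tubulins, in each other list up to 3 called genes with the highest and 3 with the lowest log2 fold change and a mean of at least 1 CPM, and the 6 genes nearest to Tubb1 (pseudocount 0.5). Other genes named, Rasgrp2, Nbeal2, Gata1, Nfe2, Nefl and Nefm, were chosen after their values were seen. All 176 list entries were found, Svbp through its gene ID. Deviations from group means correlated, across genes, at 0.166, 0.277 and 0.187 for libraries of the same number and at -0.170 to -0.008 for the other pairs. By these values same-numbered libraries may be pairs, which the labels do not say. The main fit held no term for the number, so its SE and adjusted p values are unpaired. The block was run as an alternative. Alternatives were RLE scaling, library totals with and without AY036118 and Gm26917, 2 other filters, DESeq2 1.42.0, limma-voom (limma 3.58.1), the number as a block, and leaving out each library.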

Additional observations from a re-analysis of the deposited data

How the results depend on the processing

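Leaving out 1 library at a time moved the number of genes called over the whole table from 1463 to between 764 (without radiated library 1) and 1376. Non-radiated libraries 2 and 1, left out in turn, gave 819 and 905. The number of members called moved from 2 to between 1 and 2, and the number of alpha-tubulins called from 2 to between 0 and 2. Under library totals alone, where all genes had a median of 0.19 (log2), Tubb1 was at -1.27, Tubb2b at 0.99, Tubb5 at 0.24, Tubb4b at 0.09, and 0 alpha-tubulins were called. By edgeR's test under that scaling 1000 genes were called, 854 of them higher, against 856 higher of 1463 with TMM. With the replicate block 1670 genes and the same number of members, 2, were called, with Tubb1 at -1.47 and Tubb2b at 0.82. Among the named genes, the block changed the calls given above for Mzt1, Ttll11, Mbp, Gata1 and Nfe2. Of 83 values of the 6 other members that passed the filter, 4 moved by more than the spread between libraries, all under library totals alone. Over the alternatives the calls ran from 16 to 20 for megakaryocyte genes (18 with the settings used above), 0 to 5 for their regulators (0), 0 to 14 for muscle (0), 1 to 4 for microtubule-associated proteins (2), 0 to 2 for modifying enzymes (1), 1 to 2 for nerve (2), 1 to 5 for bone (2), 0 to 1 for the gamma-tubulin group (1) and 0 to 1 for folding (0). The few counts of Tubb3 and Tubb4a limit what can be said of them.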
